A study of Homo sapiens with 6 samples.

Results

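The Wnt ligands, receptors and antagonists were described in PANC-1 cells, an established line derived from a human ductal carcinoma of the pancreas, after knockdown of RRM2, the small subunit of ribonucleotide reductase. The members were the protein-coding genes named WNT, FZD, DKK or SFRP with a number, together with LRP5, LRP6, AXIN1, AXIN2, APC, CTNNB1, LEF1, TCF7, TCF7L1, TCF7L2, RNF43, ZNRF3, LGR4, LGR5, PORCN and NKD1. The rule found 53 genes among the 42902 Gene IDs of the table; the rule itself goes by gene name. In the knockdown group, labelled shRRM2 for both genotype and treatment, there were 3 libraries of cells carrying a short hairpin RNA against RRM2. The control group, shNC, had 3 libraries of cells with a non-targeting hairpin, labelled WT for genotype and shControl for treatment. All 6 libraries came from this single line. The labels do not say how many hairpins or clones were used, or whether the libraries of a group were separate cultures, so p-values reflect only how much these libraries vary, and that variation may be technical.

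Wnt proteins are secreted lipid-modified ligands. They bind a Frizzled receptor together with the coreceptor LRP5 or LRP6, which stops a complex of APC, AXIN and kinases from marking beta-catenin for destruction, and beta-catenin then works with TCF/LEF factors on target genes. Several of those targets, among them AXIN2, RNF43, ZNRF3, NKD1 and DKK1, feed back on the pathway. In pancreatic ductal tumours the pathway is best known for inactivating mutations of RNF43, which leave Frizzled receptors on the cell surface and make cells depend on Wnt ligand.

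Promoter sequences of 4 members are shown because RNF43, WNT9A and DKK1 had large rises and LGR4 had the smallest adjusted p among the members that fell. The sequences are the 250 bases before the start of the gene, 5′ to 3′ on the strand of the gene, from the RefSeq promoter table of GRCh38.p14. DKK1 lies on the plus strand with its window at chr10:52314031-52314280. WNT9A, RNF43 and LGR4 lie on the minus strand, with windows at chr1:227947933-227948182, chr17:58417535-58417784 and chr11:27472791-27473040. RNF43 has another start further downstream, which is not shown. Capitals mark the word CTTTGAA or CTTTGAT, forms of a core that TCF/LEF factors bind, searched on both strands. Other forms, such as CTTTGTT, were not searched and are not marked. These words share their first 6 letters and cannot both start at the same base.
DKK1: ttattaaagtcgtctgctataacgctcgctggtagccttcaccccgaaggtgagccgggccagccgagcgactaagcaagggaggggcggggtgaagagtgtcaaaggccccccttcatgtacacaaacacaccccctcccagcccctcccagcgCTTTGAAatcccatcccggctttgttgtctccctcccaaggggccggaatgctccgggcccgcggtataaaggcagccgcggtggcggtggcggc
WNT9A: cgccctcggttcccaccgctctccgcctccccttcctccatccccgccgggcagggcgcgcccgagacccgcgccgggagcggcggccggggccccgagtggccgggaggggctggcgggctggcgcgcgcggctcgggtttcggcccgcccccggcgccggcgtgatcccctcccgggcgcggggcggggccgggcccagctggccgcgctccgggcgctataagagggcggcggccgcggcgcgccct
RNF43: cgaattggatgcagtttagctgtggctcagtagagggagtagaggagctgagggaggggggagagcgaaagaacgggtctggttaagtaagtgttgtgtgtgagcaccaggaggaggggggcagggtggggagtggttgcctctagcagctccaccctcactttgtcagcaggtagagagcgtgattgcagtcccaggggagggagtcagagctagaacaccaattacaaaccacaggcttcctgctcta
LGR4: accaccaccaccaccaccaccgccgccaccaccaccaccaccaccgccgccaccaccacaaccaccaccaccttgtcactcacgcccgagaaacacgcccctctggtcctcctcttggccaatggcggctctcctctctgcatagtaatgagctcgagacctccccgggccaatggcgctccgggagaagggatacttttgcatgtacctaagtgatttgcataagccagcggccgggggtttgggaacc

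The DKK1 window held CTTTGAA once, beginning 95 bases before the start, and the other 3 windows held neither word. Of the 53 members, 36 were matched by symbol to 45 windows in the table, and DKK1 was the only member with a word in them. DKK3, AXIN2, ZNRF3, NKD1 and WNT7B were among the members without a window and were not searched. DKK3 rose by 0.99 on the log2 scale, more than DKK1 at 0.86. Among all 35116 windows of that length, 5.94% held a word, beside 2.22% of the 45 member windows. The WNT9A window was 84.4% G and C, the DKK1 window 62.8%, the RNF43 window 56.0% and the LGR4 window 62.0%. A word of this kind is a description of the letters only, and factor binding was not measured.

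Total counts ran from 17442948 to 19740706 in shRRM2 and from 16606947 to 23300433 in shNC. RRM2 itself (chromosome 2, 10122568 to 10211010, GRCh38) had 40.5, 40.7 and 39.5 CPM (counts scaled to a common library size) in the shRRM2 libraries, against 204, 192 and 203 CPM in the shNC libraries. The shRRM2 level was 20.1% of the shNC level, in the direction of the labels. The keratins KRT7, KRT8 and KRT18 were abundant, with 11206 to 31909 counts in every library, whereas the ductal keratin KRT19 had 6, 6 and 6 counts in shRRM2 and 2, 2 and 0 in shNC.

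Markers of cell identity and of other cell types moved with the knockdown, and their part in the Wnt results was not tested. The counts of markers that rose stand beside 26.0% of all tested genes. Of 8 epithelial markers 7 were measured, and 6 rose (KRT8, KRT18, MUC1, CDH1, EPCAM and SOX9) and KRT7 fell, with summed levels of 4210 to 4259 CPM in shRRM2 and 2942 to 3110 CPM in shNC. Of 4 mesenchymal markers 3 rose, FN1 the most at 1.25 on the log2 scale, with sums of 814 to 833 CPM in shRRM2 and 690 to 710 CPM in shNC.

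Of 10 fibroblast markers 4 were measured and 3 rose, COL1A1 by 0.73, PDGFRB by 1.65 and FAP by 2.78 on the log2 scale. The summed level of all 10 was 62.6 to 67.6 CPM in shRRM2 against 28.8 to 31.1 CPM in shNC. ACTA2, also measured, did not pass the threshold, with 56 counts over the shRRM2 libraries and 55 over the shNC libraries. Below the filter, COL3A1 had 35 counts over the shRRM2 libraries and 5 over the shNC libraries. In the same order, THY1 had 33 and 22, LUM 11 and 2, COL1A2 7 and 0, and DCN 6 and 2. PDGFRA went the other way, with 1 and 2. Of 10 endothelial markers 4 were measured and 3 rose, VWF by 2.45, CDH5 by 1.44 and ESAM by 0.76, with sums of 93.3 to 97.1 CPM in shRRM2 and 67.8 to 74.1 CPM in shNC. EGFL7, also measured, did not pass the threshold, at 44.4 CPM in shRRM2 and 43.4 CPM in shNC. Below the filter, PECAM1 had 11 counts over shRRM2 and 6 over shNC, TEK 13 and 8, and ROBO4 11 and 3. CLDN5 went the other way with 2 and 9, as did TIE1 with 0 and 2, and KDR was at 0 in every library. EPCAM, FAP and VWF exceeded the filter level in the shRRM2 libraries alone. Of 8 immune markers only CD68 was measured, and it rose. The summed level of all 8 was 81.1 to 84.4 CPM in shRRM2 and 26.4 to 27.1 CPM in shNC. Nearly all of this was CD68, with means of 82.6 CPM in shRRM2 and 26.0 CPM in shNC. Below the filter, PTPRC had 5 counts over shRRM2 and 0 over shNC, CD79A 4 and 1, and LYZ 1 and 0. CD14 went the other way with 17 and 33, as did ITGAM with 8 and 9 and CD4 with 0 and 2. CD3E had 0 in every library.

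Of the 53 members, 33 were expressed well enough to test, or 62.3%, beside 64.4% of all protein-coding Gene IDs. In shRRM2, 8 members rose and 9 fell at an adjusted p below 0.05 in edgeR's quasi-likelihood test, and 9 rose and 6 fell with library size alone in place of TMM scaling. Over all 15866 tested genes, 52.1% passed, 26.0% higher and 26.1% lower, so the 51.5% of the tested members that passed is close to the share for genes in general. The CPM of the groups did not overlap for 19 of the 33 members, or 57.6%, beside 57.8% of all tested genes. The median log2 fold change of the tested members was −0.023 and that of all tested genes −0.0086. Of the 17 members that passed, 2 (RNF43 and WNT9A) had an absolute log2 fold change of at least 1, and 9 were under 0.5. In bulk RNA, a change in the number of cells that express a gene and a change in RNA per cell cannot be told apart.

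**Figure D1:**
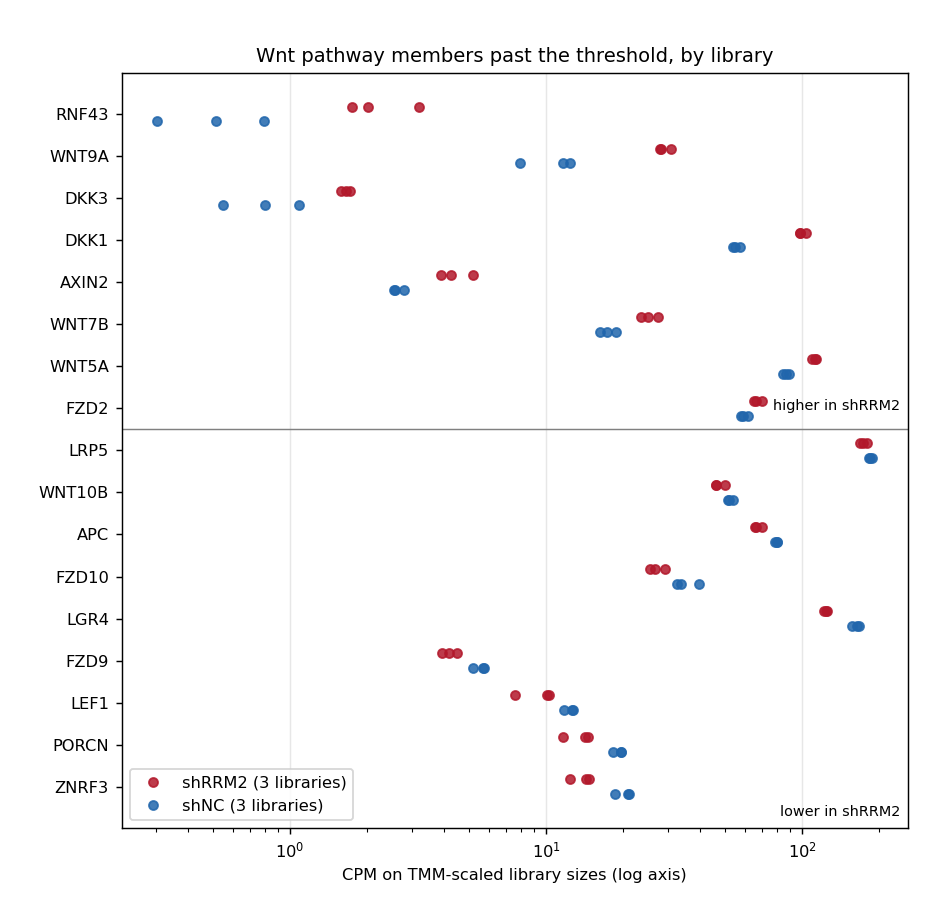
Level of each of the 17 members that passed the threshold, in CPM on a log axis, with 1 point per library (shRRM2 in red above shNC in blue). The red and blue points are apart for each of these members, most widely for RNF43 and WNT9A.

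Of the 19 ligand genes, 7 were measured, and 3 rose and 1 fell, or 57.1% beside 52.1% of all tested genes. WNT9A (Gene ID 7483, chromosome 1, 227918656 to 227947932), a ligand known from joint formation, showed the largest change among the ligands. It had 497, 553 and 559 counts in the shRRM2 libraries and 139, 269 and 204 in the shNC libraries. Its level was 28.1, 27.8 and 30.9 CPM in shRRM2, against 7.94, 11.7 and 12.4 CPM in shNC. The lowest shRRM2 library was above the highest shNC library, and the shNC libraries varied more among themselves. On the log2 scale WNT9A differed by 1.43 (SE 0.113, adjusted p = 2.49e-11), with a 95% interval of 1.20 to 1.67.

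WNT7B, a ligand of epithelia that signals through beta-catenin, rose less. Its level was 27.4, 23.5 and 24.9 CPM in shRRM2 and 16.3, 18.8 and 17.4 CPM in shNC, without overlap. This was a log2 difference of 0.53 (SE 0.0892, adjusted p = 7.26e-06). WNT5A, which acts mostly without beta-catenin, had the highest CPM of the ligands. It was at 114, 109 and 112 CPM in shRRM2 and 84.3, 88.9 and 86.4 CPM in shNC, and the libraries of each group lay close together. WNT5A thus had a fitted log2 change of 0.37 (SE 0.0434, adjusted p = 1.10e-08).

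WNT10B, a ligand of the beta-catenin branch, was slightly lower, at 46.1, 46.1 and 49.8 CPM in shRRM2 and 53.6, 51.7 and 51.3 CPM in shNC. The groups did not overlap, but the gap between the nearest libraries was small. The fit gave a log2 ratio of −0.14 (SE 0.0579, adjusted p = 0.0409). This call was lost in 9 of 14 alternative settings, with adjusted p of 0.0291 to 0.139 over them. Among these were the fits without shNC replicate 1 (0.118), without shNC replicate 2 (0.0637), without shRRM2 replicate 1 (0.136) and without shRRM2 replicate 2 (0.134).

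For WNT3, WNT2B and WNT11 no difference passed the threshold. WNT3 averaged 20.4 ± 2.54 CPM in shRRM2 and 21.1 ± 1.60 CPM in shNC (SD, n = 3 each), a log2 fold change of −0.04 with a 95% interval of −0.23 to 0.15 (adjusted p = 0.747). WNT2B was at 0.07 (interval −0.29 to 0.44, adjusted p = 0.760). WNT11 rested on 87 counts over the 6 libraries and stood at 0.03, with a wide interval of −0.86 to 0.92 (adjusted p = 0.963).

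The other 12 ligand genes were below the filter. WNT7A, WNT8A and WNT9B had 0 counts in every library, which allows a level of up to 0.0266 CPM over the 6 libraries together. WNT3A, WNT5B and WNT10A had 3, 3 and 2 counts in total, WNT8B 5, WNT2 6 and WNT1 11. WNT16 had 23 counts, WNT4 42 and WNT6 65. WNT6, the best counted of these, had 5, 14 and 6 counts in shRRM2 and 10, 10 and 20 in shNC, with overlap.

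In 3 places in the genome a measured ligand lies within 200 kb of an unmeasured one. WNT9A and WNT3A are 59065 bases apart on chromosome 1, and their totals were 2221 and 3 counts. WNT10B and WNT1 are 6586 bases apart on chromosome 12, with 5607 and 11 counts. WNT3 and WNT9B are 14496 bases apart on chromosome 17, with 2331 and 0 counts. In each of these pairs, 1 gene held nearly all of the counts. The annotated spans of WNT6 and WNT10A on chromosome 2 overlap, and both genes were below the filter.

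Per exon length, WNT10B was the leading ligand. Its level was 18.0 ± 0.816 CPM per kilobase in shRRM2 and 19.9 ± 0.466 in shNC (SD, n = 3 each), ahead of WNT5A at 15.1 ± 0.305 in shRRM2 and 11.7 ± 0.307 in shNC. WNT9A was at 7.29 ± 0.423 in shRRM2, above WNT7B at 5.00 ± 0.388 and WNT3 at 4.71 ± 0.585, which did not differ beyond their spread. In shNC the order of these was the reverse, with WNT9A at 2.69 ± 0.601, WNT7B at 3.46 ± 0.248 and WNT3 at 4.87 ± 0.370. The share of WNT9A in the summed level of the 19 ligands was 13.8%, 13.9% and 14.9% in shRRM2 and 4.61%, 6.67% and 7.05% in shNC. The share of WNT10B was 34.2%, 34.7% and 36.3% in shRRM2 and 47.0%, 44.6% and 44.1% in shNC. The sum itself was 51.2, 50.5 and 52.2 CPM per kilobase in shRRM2, against 43.3, 44.1 and 44.3 in shNC. These sums do not count protein, and the exon lengths come from GENCODE 29 rather than from the annotation that was counted.

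**Figure D2:**
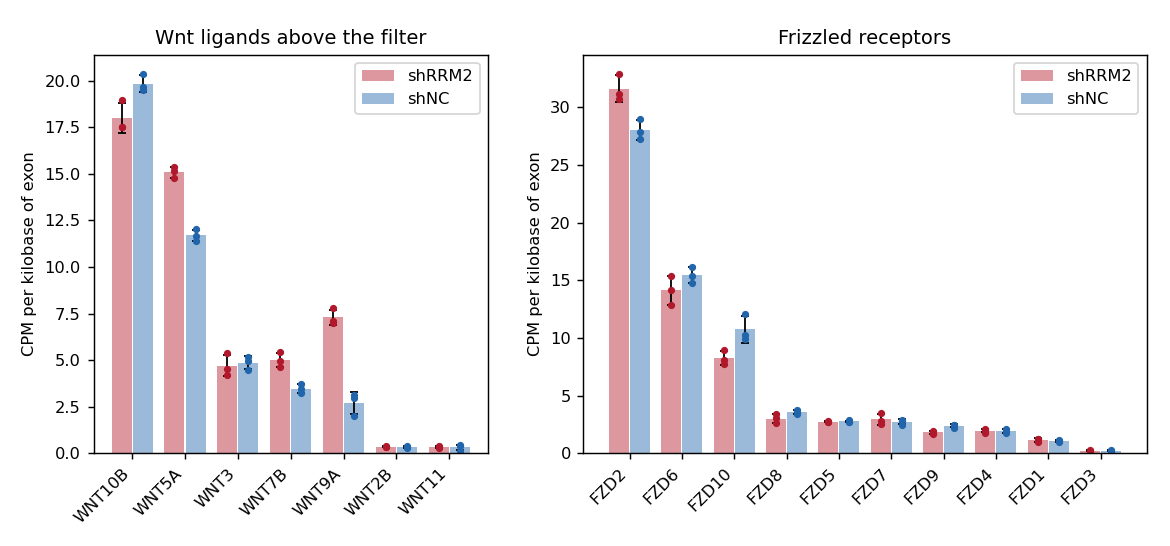
Level of the 7 measured Wnt ligands (left) and the 10 Frizzled receptors (right) in CPM per kilobase of exon, with bars for the mean, error bars for the SD and points for the 3 libraries of shRRM2 (red) and shNC (blue). WNT10B, WNT5A and FZD2 lead their families in both groups, and WNT9A has 7.29 in shRRM2 against 2.69 in shNC.

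PORCN (Gene ID 64840, chromosome X, 48508992 to 48520814), the enzyme that attaches the lipid a Wnt protein needs to be secreted and to bind Frizzled, fell. Its level was 14.6, 14.2 and 11.6 CPM in shRRM2, against 18.3, 19.6 and 19.7 CPM in shNC, without overlap. Its fitted log2 ratio was −0.51 (SE 0.102, adjusted p = 7.65e-05).

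All 10 Frizzled genes, which encode the seven-pass receptors for Wnt, were measured, and 1 rose and 2 fell, or 30.0% beside 52.1% of all tested genes. FZD2 (Gene ID 2535, chromosome 17, 44557484 to 44561262) was the leading receptor per exon length, at 31.6 ± 1.18 CPM per kilobase in shRRM2 and 28.0 ± 0.902 in shNC. In CPM it was at 69.5, 64.8 and 65.8 in shRRM2 and 58.7, 57.6 and 61.3 in shNC, so that the groups did not overlap. On the log2 scale FZD2 differed by 0.17 (SE 0.0527, adjusted p = 0.00601). FZD1, FZD2 and FZD7 are close in sequence, so reads shared among them leave some uncertainty in their counts.

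FZD10, a receptor of restricted expression in adult tissue, fell. It was at 29.2, 25.4 and 26.6 CPM in shRRM2 and 39.5, 33.7 and 32.4 CPM in shNC, with shNC replicate 1 above the rest. This was a log2 difference of −0.38 (SE 0.0794, adjusted p = 0.000136). FZD9 was lower as well, at 4.19, 4.48 and 3.92 CPM in shRRM2 and 5.71, 5.68 and 5.16 CPM in shNC. Its log2 fold change was −0.40 (SE 0.168, adjusted p = 0.0475), just inside the threshold. This call was lost in 13 of the 14 alternative settings, those without any 1 of the 6 libraries included, with adjusted p of 0.0475 to 0.129 over all of them.

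The other 7 Frizzled genes did not pass. FZD6, the second receptor per exon length, averaged 57.4 ± 5.07 CPM in shRRM2 and 62.7 ± 2.79 CPM in shNC, at a log2 fold change of −0.13 (adjusted p = 0.0755). Without shRRM2 replicate 1 it passed (−0.19, adjusted p = 0.0155). FZD8 averaged 12.1 ± 1.57 CPM in shRRM2 and 14.3 ± 0.649 CPM in shNC, at −0.24 (adjusted p = 0.0772), and passed without shRRM2 replicate 2 (−0.33, adjusted p = 0.0266). Over all 14 settings the adjusted p ran from 0.0155 to 0.493 for FZD6 and from 0.0266 to 0.353 for FZD8. FZD7 was at 0.10, FZD1 at 0.09, FZD3 at 0.08, FZD4 at 0.00 and FZD5 at −0.02, with adjusted p of 0.519, 0.606, 0.777, 0.993 and 0.849. The 95% interval of FZD5 was −0.21 to 0.16 and that of FZD4 was −0.22 to 0.22.

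The first 3 receptors by level per exon length were the same in both groups. In shRRM2, FZD2 was followed by FZD6 at 14.1 ± 1.25 CPM per kilobase and FZD10 at 8.25 ± 0.605, and in shNC by FZD6 at 15.4 ± 0.687 and FZD10 at 10.7 ± 1.16. These were apart beyond their spread in both groups. Behind them in shRRM2, FZD8 at 3.00 ± 0.389, FZD7 at 2.94 ± 0.474 and FZD5 at 2.72 ± 0.0596 did not differ beyond their spread, and neither did FZD4 at 1.95 ± 0.154 and FZD9 at 1.79 ± 0.120. In shNC, FZD8 at 3.56 ± 0.161 was above FZD5 at 2.76 ± 0.0633 and FZD7 at 2.73 ± 0.207, and FZD9 at 2.36 ± 0.132 was above FZD4 at 1.94 ± 0.181. FZD3 was the lowest, at 0.226 ± 0.0150 in shRRM2 and 0.216 ± 0.0330 in shNC. The summed level of the family was 71.2, 66.3 and 65.7 CPM per kilobase in shRRM2 and 69.9, 67.2 and 69.3 in shNC, with overlap. FZD2 took 46.2%, 46.2% and 47.5% of it in shRRM2, against 39.8%, 40.6% and 41.9% in shNC.

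The coreceptors LRP5 and LRP6 differed little. LRP5 (Gene ID 4041, chromosome 11, 68298412 to 68449275) was at 179, 174 and 168 CPM in shRRM2 and 185, 188 and 182 CPM in shNC. LRP5 thus had a fitted log2 change of −0.09 (SE 0.0363, adjusted p = 0.0315). The call was lost in 7 of 14 settings, with adjusted p of 0.0234 to 0.221 over them. Among these were the fits without shNC replicate 1 (0.0567), shNC replicate 2 (0.102), shRRM2 replicate 2 (0.0570) and shRRM2 replicate 3 (0.221). LRP6 was at 78.7, 76.4 and 77.1 CPM in shRRM2 and 78.5, 83.0 and 82.6 CPM in shNC, with overlap, and its log2 fold change of −0.07 did not pass (SE 0.0472, interval −0.17 to 0.02, adjusted p = 0.204).

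Of the secreted antagonists, DKK1 (Gene ID 22943, chromosome 10, 52314281 to 52317657) was well expressed and rose. DKK1 binds LRP5 and LRP6 and keeps them from Wnt. Its level was 97.9, 104 and 98.2 CPM in shRRM2, against 57.1, 53.9 and 54.5 CPM in shNC. The libraries of each group were tight and the groups lay far apart. The fit gave a log2 ratio of 0.86 (SE 0.0491, adjusted p = 3.57e-16), with a 95% interval of 0.76 to 0.96, the narrowest among the members that differed by more than 0.5. Its window is the only one printed above that carries a searched word. Factor binding was not measured, and any link between the word and the rise was not tested.

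DKK3, a divergent family member that does not bind LRP6 as DKK1 does, was near the filter. It had 28, 33 and 31 counts in shRRM2 and 14, 25 and 9 in shNC. Its fitted log2 ratio was 0.99 (SE 0.351, adjusted p = 0.0180). Without shNC replicate 3, the lowest library, it did not pass (0.79, adjusted p = 0.0860), and the adjusted p ran from 0.0117 to 0.0860 over the 14 settings. DKK2 had 1 count in total and DKK4 0. The secreted Frizzled-related proteins, which bind Wnt in the way Frizzled does, were all below the filter. SFRP1, SFRP2 and SFRP4 had 0 counts in every library and SFRP5 had 5 in total.

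RNF43 and ZNRF3 are related membrane ubiquitin ligases that take Frizzled off the cell surface, and they changed in opposite directions. RNF43 (Gene ID 54894, chromosome 17, 58352500 to 58417534) had 31, 40 and 58 counts in shRRM2 and 9, 7 and 13 in shNC. Its level was 1.75, 2.01 and 3.20 CPM in shRRM2, against 0.514, 0.304 and 0.790 CPM in shNC, without overlap. On the log2 scale RNF43 differed by 2.16 (SE 0.384, adjusted p = 1.53e-05), and its 95% interval of 1.37 to 2.94 is wide because the counts are low. RNF43 exceeded the filter level in 3 shRRM2 libraries and in 1 shNC library, so it would have passed the filter through shRRM2 alone, as would DKK3 with 3 and 2 libraries.

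ZNRF3 (Gene ID 84133, chromosome 22, 28883572 to 29057488) had the higher level of the pair and fell. It was at 14.4, 12.4 and 14.7 CPM in shRRM2 and 18.6, 21.0 and 21.0 CPM in shNC, without overlap. This was a log2 difference of −0.55 (SE 0.0991, adjusted p = 1.82e-05). Per exon length, ZNRF3 stood at 1.99 ± 0.175 CPM per kilobase in shRRM2 and 2.90 ± 0.195 in shNC, and RNF43 at 0.310 ± 0.103 in shRRM2 and 0.0714 ± 0.0325 in shNC. ZNRF3 therefore remained the more abundant transcript in both groups.

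LGR4 (Gene ID 55366, chromosome 11, 27365961 to 27472790), a receptor for R-spondins, which hold RNF43 and ZNRF3 away from Frizzled, fell. It was at 125, 124 and 122 CPM in shRRM2, against 167, 163 and 157 CPM in shNC. The libraries of each group were close to each other and the groups did not overlap. LGR4 thus had a fitted log2 change of −0.39 (SE 0.0383, adjusted p = 1.53e-10). LGR5, the stem cell marker of the same receptor family, had 2 counts over the 6 libraries.

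In the destruction complex, the scaffold genes APC and AXIN1 stayed abundant while AXIN2, the feedback copy of AXIN1, stood far below them. AXIN2 (Gene ID 8313, chromosome 17, 65528563 to 65561648), the most widely used transcriptional readout of beta-catenin, rose. It had 75, 77 and 94 counts in shRRM2 and 45, 59 and 46 in shNC, which is 4.24, 3.88 and 5.19 CPM in shRRM2 and 2.57, 2.56 and 2.79 CPM in shNC. Every shRRM2 library was above every shNC library. The fit gave a log2 ratio of 0.75 (SE 0.201, adjusted p = 0.00211), with a 95% interval of 0.34 to 1.16. Per exon length, AXIN2 had 0.849 ± 0.130 CPM per kilobase in shRRM2 and 0.505 ± 0.0253 in shNC, and AXIN1 had 13.1 ± 0.291 in shRRM2 and 13.4 ± 0.300 in shNC.

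APC (Gene ID 324, chromosome 5, 112707498 to 112846239), the tumour suppressor that holds the complex together, fell modestly. It was at 69.7, 65.5 and 66.3 CPM in shRRM2 and 79.5, 78.6 and 79.9 CPM in shNC, without overlap. Its fitted log2 ratio was −0.24 (SE 0.0487, adjusted p = 9.51e-05). AXIN1 was at 96.2, 97.1 and 100.4 CPM in shRRM2 and 101, 101 and 97.5 CPM in shNC. These overlapped, and the log2 fold change of −0.03 did not pass (SE 0.0432, interval −0.12 to 0.05, adjusted p = 0.541).

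CTNNB1 (Gene ID 1499, chromosome 3, 41199505 to 41240443) encodes beta-catenin, which is regulated mainly as a protein, so its transcript level does not report its activity. It had the highest CPM of all members, at 293, 277 and 295 CPM in shRRM2 and 302, 298 and 298 CPM in shNC. The shRRM2 libraries were slightly lower without overlap, but the log2 fold change of −0.05 did not pass (SE 0.0329, interval −0.12 to 0.01, adjusted p = 0.165).

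Of the TCF/LEF factors, the partners of beta-catenin on DNA, TCF7L2 was the most abundant and LEF1 was the only factor that passed. LEF1 (Gene ID 51176, chromosome 4, 108047548 to 108168932) fell. It was at 10.1, 7.55 and 10.3 CPM in shRRM2, with replicate 2 the lowest, and 12.7, 11.8 and 12.6 CPM in shNC. On the log2 scale LEF1 differed by −0.41 (SE 0.127, adjusted p = 0.00730). Without shRRM2 replicate 2 it did not pass (−0.27, adjusted p = 0.0874), and the adjusted p ran from 0.00509 to 0.0874 over the settings.

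TCF7L2, the main factor of this family in gut epithelium, averaged 32.7 ± 1.97 CPM in shRRM2 and 29.7 ± 1.97 CPM in shNC (SD, n = 3 each). Its log2 fold change of 0.14 did not pass (interval −0.01 to 0.29, adjusted p = 0.108), but it did with library size alone (0.18, adjusted p = 0.0407) and without shRRM2 replicate 3 (0.20, adjusted p = 0.0408). Over the 14 settings its adjusted p ran from 0.0407 to 0.440. TCF7 rested on 96 counts in total and stood at 0.19 (adjusted p = 0.720), and TCF7L1 had 27 counts and was not tested. NKD1, which binds Dishevelled and dampens Wnt signalling, had 16, 9 and 5 counts in shRRM2 and 10, 21 and 19 in shNC. Its log2 fold change of −0.69 did not pass (interval −1.64 to 0.25, adjusted p = 0.218).

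**Figure D3:**
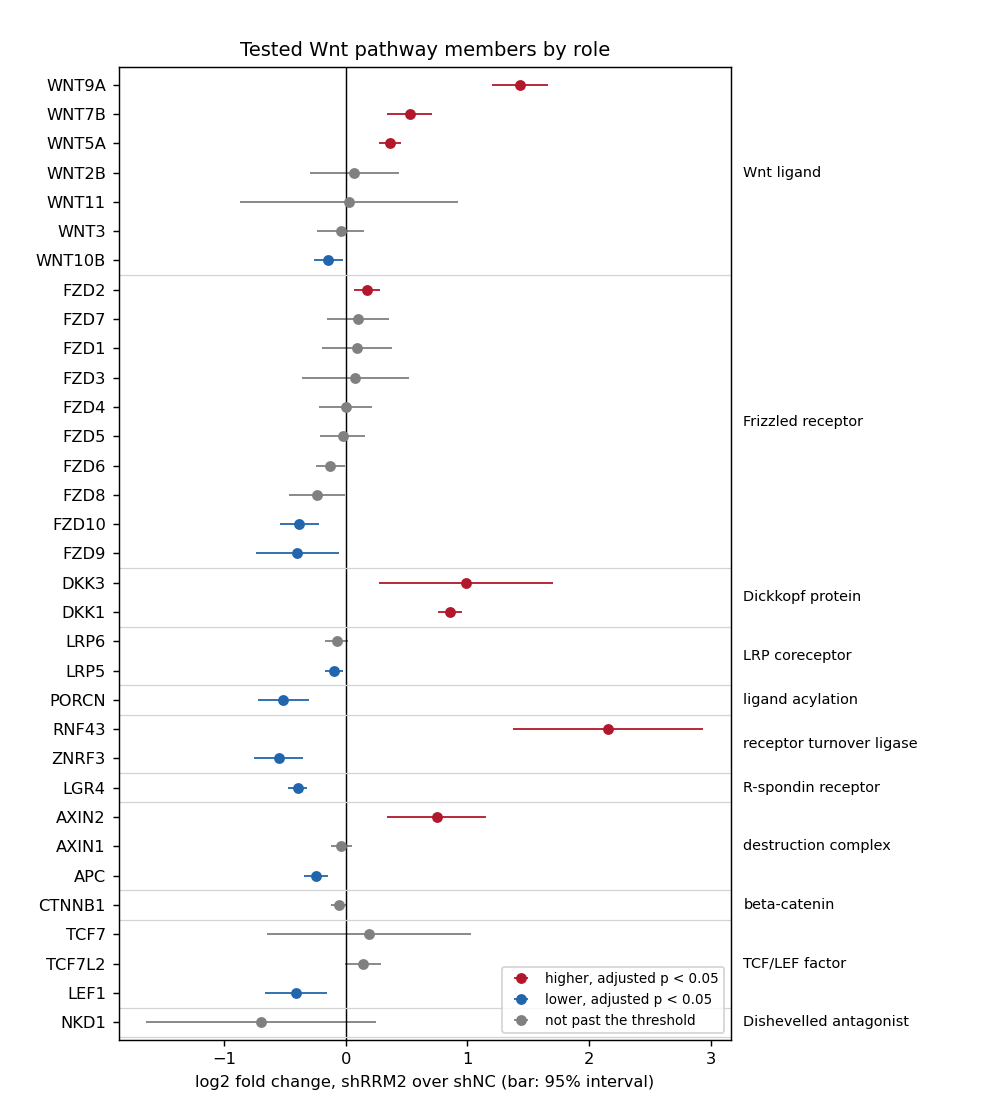
Log2 fold change (shRRM2 over shNC) of the 33 tested members by role, with points for the estimate and bars for the 95% interval, red for higher and blue for lower at an adjusted p below 0.05 and grey for the rest. RNF43 at 2.16 and ZNRF3 at −0.55 stand on opposite sides of 0, and the widest intervals belong to the low-count genes WNT11, DKK3, RNF43, TCF7 and NKD1.

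Several members share their place with another gene, and the sources used here do not say whether strand was used in counting. FZD4, with 1629 counts over the 6 libraries, overlaps PRSS23, with 34658. TCF7, with 96, overlaps VDAC1, with 35855. WNT2B, with 481, overlaps ST7L, with 1791, and WNT3, with 2331, overlaps LRRC37A2, with 2131. None of these 4 members passed the threshold. Among members that passed, WNT5A had 11154 counts beside 415 for WNT5A-AS1, LEF1 1215 beside 36 for LEF1-AS1, LGR4 16169 beside 30 for LGR4-AS1, RNF43 158 beside 14 for TSPOAP1-AS1 and ZNRF3 1922 beside 11 for ZNRF3-AS1.

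A list of 53 further pathway components held 40 measured genes, of which 16 rose and 11 fell. That is 67.5%, beside 52.1% of all tested genes, and the median log2 fold change was −0.0026, beside −0.0086 for all tested genes. The list was chosen with earlier results of these data known, and its share was not tested. PRICKLE1, a core protein of planar cell polarity, rose to 2.37 ± 0.238 CPM in shRRM2, against 0.444 ± 0.112 CPM in shNC (log2 fold change 2.37, SE 0.362, adjusted p = 1.26e-06). It exceeded the filter level in 3 shRRM2 libraries and 0 shNC libraries, and so entered the test through shRRM2 alone. ROR1, a receptor tyrosine kinase for WNT5A, rose by 1.72 (SE 0.391, adjusted p = 0.000385), with 34, 38 and 30 counts in shRRM2 and 11, 18 and 3 in shNC, and it too would have passed the filter through shRRM2 alone (3 and 2 libraries). LGR6, a further R-spondin receptor, rose by 1.23 (adjusted p = 0.000287), whereas the related LGR4 fell as given above. DAAM1, a formin that acts behind Frizzled and Dishevelled, was at 27.0 ± 0.209 CPM in shRRM2 and 15.5 ± 1.45 CPM in shNC, a rise of 0.80 (adjusted p = 2.22e-09).

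AMER1 and KREMEN2 had the largest falls on this list. AMER1, a membrane-associated partner of APC, was at 22.5, 22.6 and 22.1 CPM in shRRM2 and 40.0, 40.8 and 38.3 CPM in shNC, which gave −0.83 on the log2 scale (SE 0.0714, adjusted p = 9.53e-12). KREMEN2, which binds DKK1 together with LRP6, was at 15.0, 15.2 and 16.1 CPM in shRRM2 and 26.2, 29.3 and 24.7 CPM in shNC. Its log2 fold change was −0.80 (SE 0.0894, adjusted p = 3.38e-09). KREMEN1, the related receptor, did not pass (−0.22, adjusted p = 0.312). GSK3A and GSK3B, the kinases of the destruction complex, stood at −0.01 and 0.00 (adjusted p = 0.823 and 0.936).

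A list of 34 genes commonly used as Wnt/beta-catenin targets held 21 measured genes, of which 12 rose and 4 fell, or 76.2% beside 52.1% of all tested genes. This list too was chosen with earlier results of these data known, and its share was not tested. The median log2 fold change was 0.22. MMP7, a matrix protease, had 33, 27 and 27 counts in shRRM2 and 1, 7 and 7 in shNC (log2 fold change 2.55, SE 0.468, adjusted p = 2.38e-05). It exceeded the filter level in 3 shRRM2 libraries and 0 shNC libraries, and so entered the test through shRRM2 alone. The transcription factors SOX9 and SALL4 rose by 1.31 (adjusted p = 2.83e-09) and 1.28 (adjusted p = 8.61e-14), and JUN and TWIST1 by 0.78 and 0.72 (adjusted p = 2.29e-08 and 0.000515). MYC, the best known target in colon epithelium, was at 271, 275 and 258 CPM in shRRM2 and 471, 471 and 457 CPM in shNC, which gave −0.80 on the log2 scale (SE 0.0323, adjusted p = 3.55e-20). Most of these targets also answer to other pathways, and SOX9 stands on the list of epithelial markers as well. NOTUM, which rose by 0.49 on the log2 scale, is on both pathway lists and is counted in each.

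Of the 5 feedback genes named as background above, AXIN2, RNF43 and DKK1 were higher in shRRM2, ZNRF3 was lower, and NKD1 did not pass. Over all tested genes, 52.1% passed and 26.0% were higher. These feedback genes are members, which were chosen with earlier results of these data known, and RNF43 would have passed the filter through shRRM2 alone. KREMEN1, GSK3A and GSK3B were named after their values were seen.

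**Figure D4:**
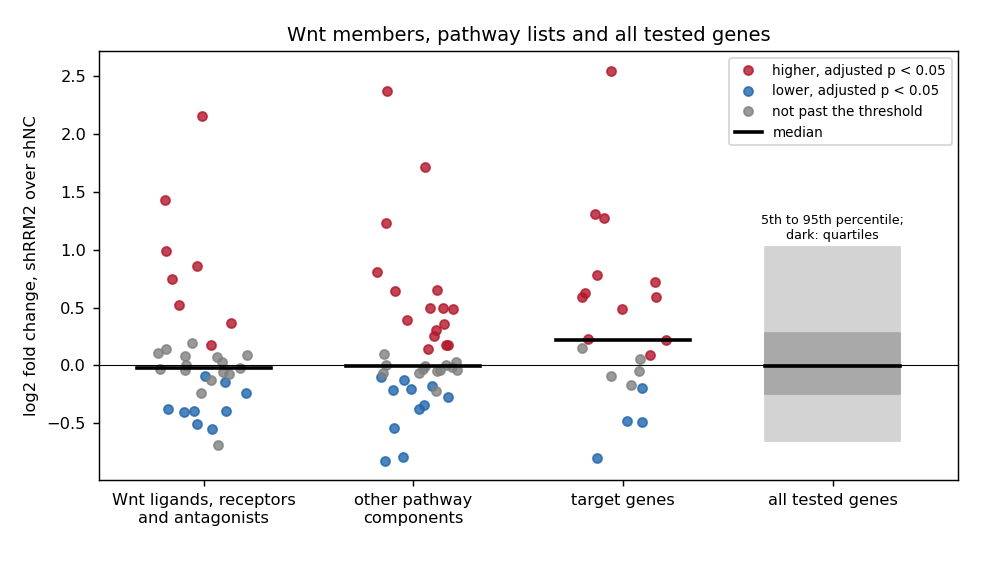
Log2 fold change (shRRM2 over shNC) of the measured genes of 3 groups, with 1 point per gene coloured by call and a line at the median, and the spread of all tested genes as grey bands. The medians are −0.023 for the 33 members, −0.0026 for the 40 other components and 0.22 for the 21 targets. NOTUM is on both of the last lists and is drawn in each.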

How the data were processed

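RNA sequencing was analysed in 6 PANC-1 libraries, 3 of shRRM2 and 3 of shNC. The deposited table holds raw read counts per NCBI Gene ID, which the authors made with fastp 0.23.4 and featureCounts on hg38, per the submitters' processing notes. Which aligner and gene models were used, and how strand and shared reads were handled, is not given in the sources used here. Libraries were made from poly(A) RNA with a directional kit, per the labels' protocols. Columns carry si where the titles have sh and were matched by gene name and number. Of 42902 Gene IDs, 40120 were matched by ID to RefSeq symbols and positions (GRCh38.p14), and the unmatched IDs held 1.25% of the counts.

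Genes were kept with filterByExpr (at least 10 counts at the median library size, or 0.560 CPM, in 3 libraries), which left 15866. edgeR 4.0.16 in R 4.3.3 was used with TMM scaling, a robust quasi-likelihood fit on group alone, and Benjamini-Hochberg adjustment over all tested genes (two-sided, threshold 0.05). SE is the log2 fold change over the square root of F, and 95% intervals use the t distribution. An exact permutation test of 3 against 3 libraries cannot go below 0.1 and was not used. Levels are CPM on TMM-scaled sizes, and levels between genes were divided by the exon union length in GENCODE 29. A gene at 0 in all libraries allows 3 counts, which covers counting error only. At 16606947 to 23300433 counts per library, low-count members have wide intervals.

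The members and lists were chosen with earlier results of these data known. Named are all members, in full where they passed the threshold with a mean of at least 1 CPM, and the 6 largest changes past the threshold of each pathway list. The 14 alternatives were library size alone, RLE factors, 1 CPM in 3 libraries, no filter, DESeq2 1.42.0, limma-voom (limma 3.58.1), the replicate number as a block, an adjusted p of 0.01, and leaving out each library.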

Additional observations from a re-analysis of the deposited data

How the results depend on the processing

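All 8 counts of genes past the threshold (all genes, the members and both lists, each higher and lower) stayed within 1.5 times their value in the 14 alternative settings. Of the 17 members that passed, 12 kept their direction and their call in all of them, and 5 (WNT10B, FZD9, LRP5, DKK3 and LEF1) lost the call in at least 1, as given beside them. The members that rose numbered 7 to 9 and those that fell 6 to 8 when a library was left out. With library size alone, 9 rose and 6 fell, and the median of all genes was 0.029 in place of −0.0086.

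Values changed sign for 9 members, none of which passed the threshold in any of these settings. With library size alone, FZD5 was at 0.015 and AXIN1 at 0.0043, and with limma-voom FZD4 was at −0.0039. With 1 library left out, the log2 fold change ran from −0.00064 to 0.163 for WNT2B, from −0.308 to 0.327 for WNT11, from −0.141 to 0.041 for WNT3 and from −0.064 to 0.077 for FZD4. It ran from −0.026 to 0.208 for FZD7, from −0.030 to 0.194 for FZD3 and from −0.0057 to 0.623 for TCF7. The cause was not tested. WNT11, TCF7 and NKD1 were not tested at 1 CPM in 3 libraries.

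Same-numbered libraries did not deviate together: the correlation of their deviations was −0.0068, −0.0034 and −0.021, all under 0.1. Whether they were prepared in pairs is not given, and these correlations cannot show it. With the replicate block 8 members rose and 8 fell, and FZD9 was the call lost (−0.39, adjusted p = 0.0582).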
